A study of Mus musculus with 12 samples.

Results

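Immediate early genes were followed across 4 treatments of isolated mouse islets: the NR4A nuclear receptors Nr4a1 and Nr4a2, the AP-1 subunits Fos, Fosb, Jun and Junb, the transcription factors Egr1 and Npas4, the synaptic effector Arc and the MAP kinase phosphatase Dusp1. These 10 genes were picked from the same libraries, because Nr4a1 and Nr4a2 were higher when ML351 was added to cytokine-treated islets. Of the 10, 9 are among the 14089 genes measured, and Fosb is not analysed here. The islets came from C57BL/6J mice, were isolated from collagenase-perfused pancreata and were cultured for 24 h with vehicle, with 10 µM ML351 alone, with inflammatory cytokines, or with cytokines and ML351 together (the combination). ML351 inhibits 12/15-lipoxygenase, which adds oxygen to polyunsaturated fatty acids, and the cytokine mixture held IL-1β at 5 ng/ml, TNF-α at 10 ng/ml and IFN-γ at 100 ng/ml. The comparisons address how inhibiting the enzyme alters the islet response to inflammatory cytokines. Each group had 3 libraries, numbered 1, 2 and 4 for vehicle and the combination, 1, 2 and 3 for ML351, and 1, 3 and 4 for cytokines. The age and sex of the mice, and whether islets were pooled, are not given in the labels. The labels are also silent on whether replicate libraries stem from different animals or culture wells, so each p-value here reflects the scatter among these samples alone, and that scatter may be technical.

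Immediate early genes are transcribed within minutes of a stimulus, without new protein synthesis, when calcium, cAMP or MAP kinase signals activate transcription factors already present in the cell, such as CREB and SRF. Most of their products are short-lived transcription factors or feedback inhibitors, and their transcripts are usually unstable, so that levels reflect recent signalling. In β cells, glucose, incretin hormones and depolarisation are known inducers of NR4A, AP-1, EGR and NPAS4 transcripts, and inflammatory cytokines activate AP-1 through JNK. Here a single time point, 24 h, was measured.

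The sequences that lie just before the starts of these genes are shown because CREB, the factor that links cAMP and calcium to immediate early transcription, reads a short DNA word, the cAMP response element (CRE). Of the 10 genes, 8 were matched in the table of RefSeq promoters (GRCm38.p6), and the 250 bases before the RefSeq start are given 5′ to 3′ on the gene's strand. Capitals mark the 5-letter CRE element TGACG, which appears as CGTCA where it lies on the other strand. The windows are chr15:101266596-101266845 for Nr4a1 (plus strand), chr2:57124004-57124253 for Nr4a2 (minus), chr19:4989972-4990221 for Npas4 (minus), chr12:85473640-85473889 for Fos (plus), chr17:26508473-26508722 for Dusp1 (minus) and chr4:95052223-95052472 for Jun (minus).
Nr4a1: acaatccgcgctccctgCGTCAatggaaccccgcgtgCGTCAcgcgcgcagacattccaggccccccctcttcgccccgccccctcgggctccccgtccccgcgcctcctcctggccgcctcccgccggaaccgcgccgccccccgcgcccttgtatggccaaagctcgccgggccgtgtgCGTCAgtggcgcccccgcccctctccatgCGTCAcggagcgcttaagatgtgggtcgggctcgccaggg
Nr4a2: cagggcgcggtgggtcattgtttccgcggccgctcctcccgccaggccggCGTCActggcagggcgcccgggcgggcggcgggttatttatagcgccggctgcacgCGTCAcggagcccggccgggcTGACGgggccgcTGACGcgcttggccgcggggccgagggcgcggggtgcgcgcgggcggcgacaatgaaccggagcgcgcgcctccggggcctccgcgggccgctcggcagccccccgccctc
Npas4: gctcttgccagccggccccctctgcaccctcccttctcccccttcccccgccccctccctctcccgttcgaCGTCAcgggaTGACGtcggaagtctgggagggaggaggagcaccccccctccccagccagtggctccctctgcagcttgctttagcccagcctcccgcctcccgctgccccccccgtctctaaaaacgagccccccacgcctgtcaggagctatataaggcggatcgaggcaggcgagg
Fos: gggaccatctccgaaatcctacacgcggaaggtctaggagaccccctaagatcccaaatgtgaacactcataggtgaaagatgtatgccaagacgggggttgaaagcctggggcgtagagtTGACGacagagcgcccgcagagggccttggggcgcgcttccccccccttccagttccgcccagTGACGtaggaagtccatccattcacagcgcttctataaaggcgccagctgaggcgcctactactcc
Dusp1: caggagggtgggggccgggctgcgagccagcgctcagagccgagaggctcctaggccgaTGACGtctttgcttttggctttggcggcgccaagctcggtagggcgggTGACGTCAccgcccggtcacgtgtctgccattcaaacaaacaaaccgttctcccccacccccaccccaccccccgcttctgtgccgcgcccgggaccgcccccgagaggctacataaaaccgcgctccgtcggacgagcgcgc
Jun: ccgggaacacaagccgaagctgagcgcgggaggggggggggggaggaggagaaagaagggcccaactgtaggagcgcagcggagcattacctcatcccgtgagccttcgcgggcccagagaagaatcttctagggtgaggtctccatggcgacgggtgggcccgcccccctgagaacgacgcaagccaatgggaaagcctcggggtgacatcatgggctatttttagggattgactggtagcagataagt
Nr4a1 and Nr4a2 held the element 4 times each, Dusp1 3 times, Npas4 and Fos 2 times each, Fosb and Junb 1 time each, and Jun held none.

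Among all 32851 promoter windows of that length, 17.8% held the 5-letter element on either strand at least 1 time and 0.137% held it 4 times or more, against 7 of the 8 matched genes with at least 1. The longer 7-letter core TGACGTC contains the 5-letter element, so its matches overlap those in capitals. It was found 2 times in Npas4, 3 times in Dusp1 and in none of the other 6 windows, against 2.78% of all windows. In Dusp1, 2 of the 3 matches, of both the short element and the longer core, overlap on opposite strands of a palindrome. An EGR core, GCGNGGG, was present in 7 of the 8 windows, Fos being without it, against 20.3% of all windows. An NF-κB element was found in Fos and Fosb, against 3.9% of windows. The AP-1 element TGANTCA (6.75% of windows), the NR4A element core AAGGTCA (4.08%) and the CArG box of SRF (1.47%) were in none of the 8. Both strands were searched. These matches are descriptions of letters, and the windows do not cover distal elements.

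**Figure D1:**
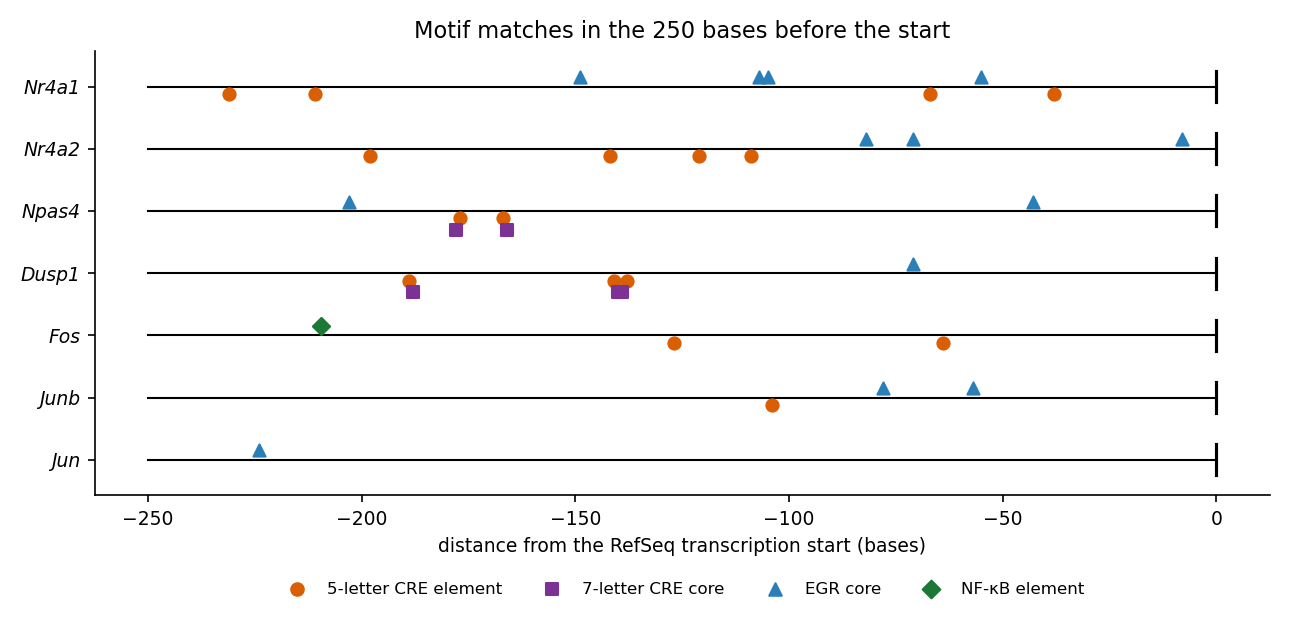
Positions of motif matches in the 250 bases before the RefSeq start of the 7 matched genes that were also measured; the x axis is the distance from the start in bases. Circles mark the 5-letter CRE element, squares the 7-letter CRE core that contains it, triangles the EGR core and the diamond the NF-κB element. Nr4a1 and Nr4a2 hold 4 circles each and Jun holds none.

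The cytokine mixture raised most of these genes and lowered Nr4a2, whereas ML351 alone changed none of them past the threshold. With cytokines against vehicle, 7 of the 9 measured genes passed the edgeR quasi-likelihood test at an adjusted p of 0.05, with Fos, Jun, Junb, Egr1, Arc and Dusp1 higher and Nr4a2 lower. Of all genes tested, 72.5% passed in that comparison, 35.3% higher and 37.2% lower, so the count of 7 stands close to the background. The median log2 difference was 1.10 over the 9 genes and -0.02 over all genes. The groups did not overlap for the same 7 genes, as for 37.2% of all genes in the higher direction and 39.4% in the lower. This comparison was not the one that chose the genes, but it shares the cytokine libraries with that one.

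With ML351 against vehicle, which uses only libraries outside the choice of the genes, edgeR called 0 of the 9, where 0.0355% of all genes were called. DESeq2 and limma-voom also called 0 of them. Before adjustment, edgeR put 1265 of the 14089 genes under 0.05, and among the 9 it put 1 there, Nr4a2 (adjusted p = 0.519). The log2 difference was above 0 for 8 of the 9 genes, against 52.1% of all genes, with a median of 0.34 against 0.01. Nr4a2 and Arc were higher in each ML351 library than in each vehicle library, as were 8.57% of all genes. The count of 8 depended most on ML351 replicate 1, without which the log2 difference was -0.09 for Nr4a1, -0.01 for Junb, -1.04 for Npas4 and -0.07 for Dusp1.

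With the combination against ML351, the response to cytokines in the presence of the inhibitor, 7 genes were tested, since Nr4a1 and Nr4a2 were chosen on the combination libraries. Of these 7, edgeR called 5, all higher: Fos, Jun, Junb and Dusp1, and also Npas4, whose call is no independent result. Of all genes, 71.5% were called in that comparison and 35.2% were called higher. Npas4 is a special case, because no gene in the table has fewer than 3 libraries at 0.503 CPM or more (counts scaled to the library total), and Npas4 is at that level only in the 3 combination libraries. It could thus be in the table only by being high there, and its difference from the other groups is no independent result. Fos, Jun, Junb and Dusp1 passed the test in the same direction in both comparisons with and without cytokines. None of the 7 was called in opposite directions. The share of all genes called in the same direction in both is not given here. These comparisons share no library, but both came from the same fit, with spread estimated from all libraries, so they are not independent tests. With cytokines against vehicle, Fos did not pass in 11 of the 20 alternative settings.

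The comparison that chose the genes, the combination against cytokines alone, is given as values only. Nr4a1, Nr4a2, Fos, Npas4 and Dusp1 were higher in each combination library than in each cytokine library, as were 10.1% of all genes. Arc was lower in each, as were 10.3% of all genes, and Jun, Junb and Egr1 overlapped. At an adjusted p of 0.05 in edgeR, 0.646% of all genes were called higher there. No call is given for the described genes, since higher Nr4a1 and Nr4a2 in this comparison were the reason for the choice. Npas4, in addition, could be in the table only by being high in the combination.

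**Figure D2:**
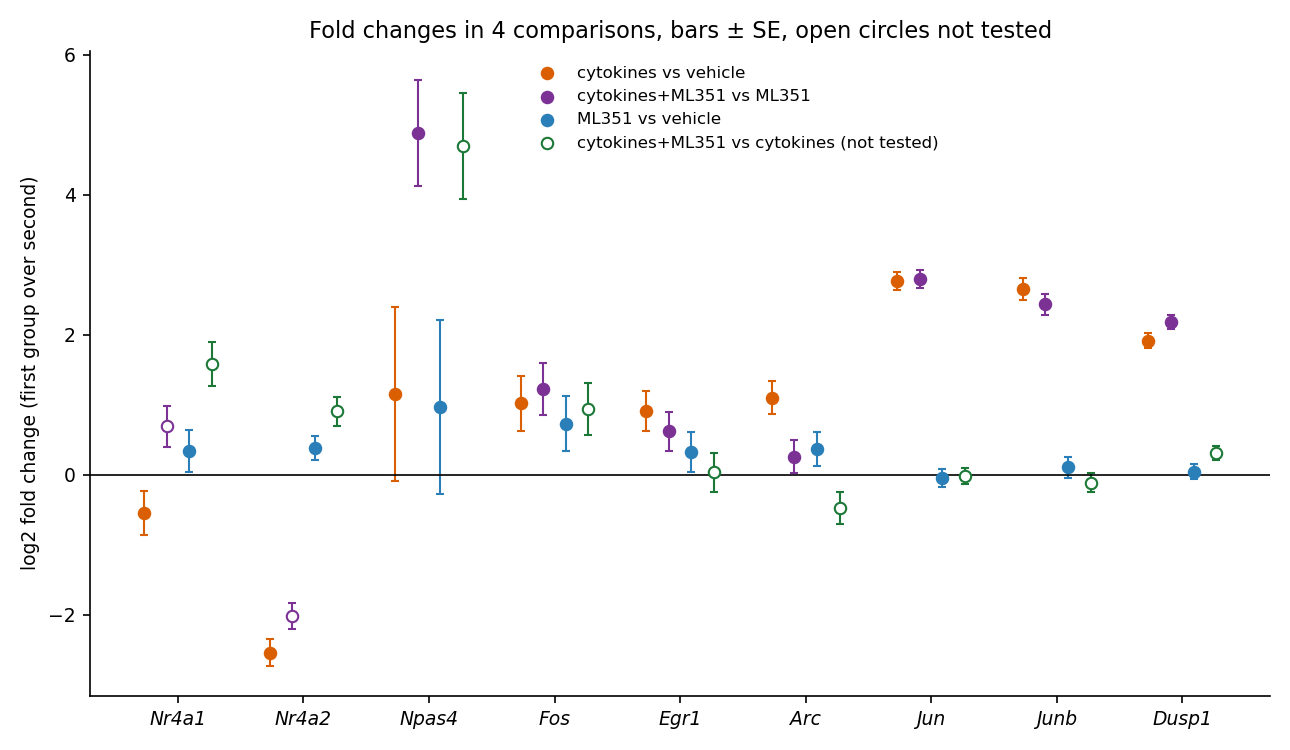
Fitted log2 fold changes (y axis, the group named before "vs" over the group after it) of the 9 measured genes in 4 comparisons. Bars are ± 1 SE from the edgeR model. Open circles were not tested: all genes in the combination against cytokines, and Nr4a1 and Nr4a2 in the combination against ML351. The filled Npas4 point in the combination against ML351 (4.88) is a description and no independent result. Jun, Junb and Dusp1 lie at 1.92 to 2.80 in both comparisons with and without cytokines, whereas Nr4a2 lies at -2.54 and -2.02.

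The NR4A receptors are orphan nuclear receptors that bind DNA without a known hormone and are regulated mainly through their own abundance. Nr4a2 (Nurr1), at chr2:57106830-57124003 on the minus strand (GRCm38), stood at 17.8, 17.0 and 17.9 CPM (here and below, counts scaled by TMM-adjusted library totals) in the vehicle libraries and at 28.3, 22.8 and 17.9 CPM in the ML351 libraries. It stood at 3.27, 2.55 and 3.22 CPM with cytokines and at 7.18, 5.65 and 4.15 CPM with the combination. All 6 libraries with cytokines lay below all 6 without, and each combination library lay above each cytokine library. Cytokines lowered the mean from 17.6 ± 0.485 to 3.01 ± 0.401 CPM (SD, n = 3 each), a log2 change of -2.54 (standard error of the model, SE, 0.198, adjusted p = 1.43e-08, edgeR), that is 5.81-fold lower.

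With ML351 alone the mean was 23.0 ± 5.19 CPM, a log2 difference of 0.39 (SE 0.170) from vehicle. The lowest ML351 library and the highest vehicle library were 17.88 and 17.86 CPM, so the separation between these groups is far smaller than the spread within ML351. In the combination the mean was 5.66 ± 1.52 CPM, 1.88-fold the cytokine mean (log2 0.91, SE 0.207) and 4.05-fold below ML351 alone (log2 -2.02, SE 0.185). In order, Nr4a2 thus ran from cytokines through the combination and vehicle to ML351. The level with cytokines and ML351 together was 11.9 CPM below that of vehicle.

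The fall of Nr4a2 with cytokines came with a change in the makeup of the RNA. The 3 δ-cell markers (Sst, Hhex and Rbp4) summed to 1375 to 1438 CPM with vehicle and 91.7 to 136 CPM with cytokines, and the 11 endothelial markers to 117 to 128 and 28.3 to 39.8 CPM. Of 10 β-cell markers 8 fell with cytokines in edgeR (median log2 -2.95 over the 10), whereas Ins2 and Iapp, which carry most of their summed level, did not pass. In the combination the δ-cell markers summed to 140 to 204 CPM, above each cytokine library, as Nr4a2 was. Hhex was higher than with cytokines by 1.07 on the log2 scale (adjusted p = 0.0292, edgeR). The endothelial markers went the other way, with 19.5 to 22.9 CPM in the combination, below each cytokine library. Of these 11, edgeR called 4 lower than with cytokines and 0 higher (median log2 -0.66). None of these markers was at 0 in every library of a group. In bulk islets, fewer cells of a type and less RNA per cell cannot be told apart, and the part of these shifts in the Nr4a2 result was not tested.

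Nr4a1 (Nur77), at chr15:101254269-101274795 on the plus strand, is induced by cAMP and calcium signals in many cell types. Its levels were 6.79, 7.57 and 4.70 CPM with vehicle, 12.2, 6.63 and 5.35 CPM with ML351, 5.20, 4.66 and 3.12 CPM with cytokines and 14.9, 13.1 and 11.1 CPM with the combination. The combination libraries were above each vehicle and each cytokine library, while ML351 replicate 1 reached into their range and cytokines overlapped vehicle. The group means were 6.35 ± 1.49, 8.07 ± 3.66, 4.33 ± 1.08 and 13.0 ± 1.88 CPM in the same order. Cytokines against vehicle gave a log2 difference of -0.55 (SE 0.316, adjusted p = 0.141, edgeR), which did not pass. The difference passed when only those 2 groups entered the fit (adjusted p = 0.0411, edgeR) and without ML351 replicate 1 (adjusted p = 0.0350, edgeR), the library of highest Nr4a1 outside the combination. ML351 against vehicle gave 0.34 (SE 0.302, adjusted p = 0.825, edgeR), and -0.09 without ML351 replicate 1.

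The combination stood at 3.00-fold the cytokine level of Nr4a1 (log2 1.58, SE 0.310), and leaving out any 1 of the 12 libraries gave log2 values of 1.40 to 1.73. Against ML351 alone the log2 difference was 0.70 (SE 0.294). Nr4a1 and Nr4a2 therefore had different orders of groups. Nr4a1 was highest with the combination, while Nr4a2 in the combination stayed below both groups without cytokines.

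**Figure D3:**
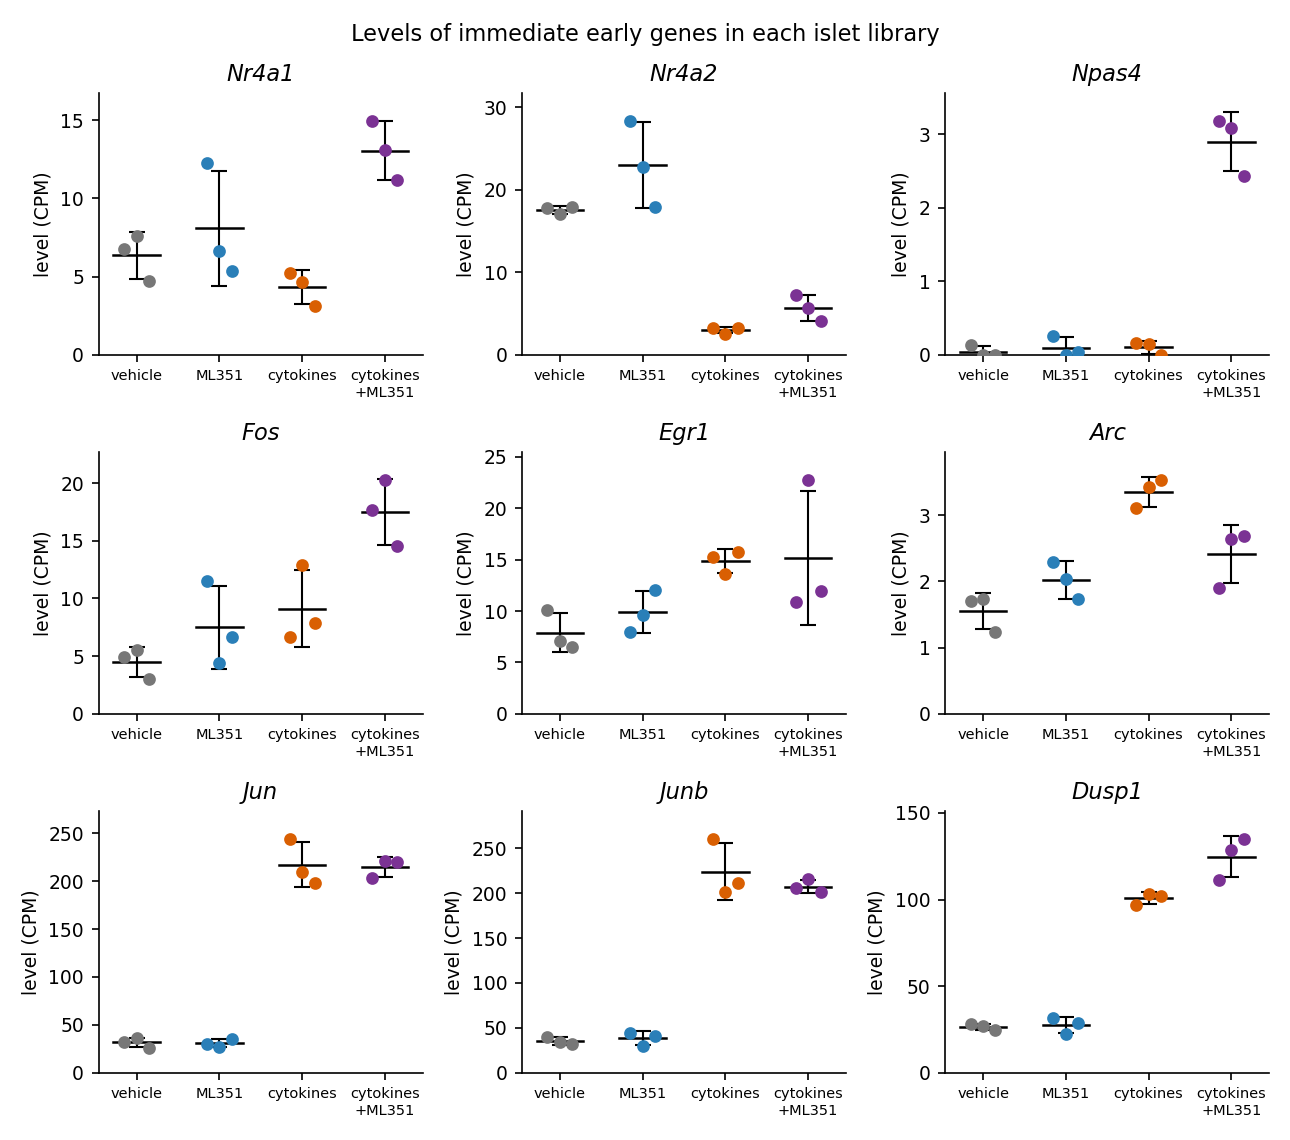
Level of each of the 9 measured genes in the 12 libraries (y axis, CPM on TMM-scaled library totals, from 0); points are libraries ordered by replicate number within a group, the long bar is the group mean and the error bar ± 1 SD, n = 3. Npas4 lies at 2.44 to 3.18 CPM in the combination and at 0.255 CPM or less elsewhere, while Jun and Junb separate the 6 libraries with cytokines from the 6 without.

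Npas4, at chr19:4984355-4990316 on the minus strand, encodes a transcription factor that is induced selectively by calcium entry in neurons and by depolarisation in β cells. Its raw counts were 3, 0 and 0 in the vehicle libraries, 6, 0 and 1 in the ML351 libraries, 4, 3 and 0 in the cytokine libraries, and 65, 70 and 47 in the combination. These are 0.127, 0 and 0 CPM, 0.255, 0 and 0.0394 CPM, 0.161, 0.147 and 0 CPM, and 3.18, 3.09 and 2.44 CPM. Only the combination libraries held more than 6 counts, in libraries where 1 count is worth 0.0364 to 0.0518 CPM. Summed over the libraries of a group, the combination held 182 counts, ML351 7, cytokines 7 and vehicle 3.

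Scaled for depth, the combination held 64.8 times the Npas4 level of vehicle (95% interval 21.8 to 317), 31.8 times that of ML351 (15.1 to 80.3) and 27.1 times that of cytokines (12.9 to 68.4). The intervals cover counting error only, and PCR copies are not independent molecules. Against ML351 the fitted log2 change was 4.88 (SE 0.756). As Npas4 could be in the table only by being high in the combination, this change is a description and no independent result. The same holds for the ratios of the combination to vehicle, ML351 and cytokines. Cytokines gave 2.39 times the vehicle level (interval 0.546 to 14.3) and ML351 gave 2.04 times (0.465 to 12.2), and neither was distinguishable from 1 at this depth. Per kilobase of exon, the mean in the combination was 0.702 CPM, the lowest of the 9 genes in that group, next to 0.791 CPM for Arc.

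The higher levels of Npas4, Nr4a1, Nr4a2 and Fos in the combination than with cytokines came with higher markers of acinar cells, the exocrine cells that surround islets. The 15 measured acinar markers of 19 listed summed to 1053, 1287 and 875 CPM in the combination libraries and to 39.0, 550 and 792 CPM in the cytokine libraries 1, 3 and 4. They summed to 236 to 642 CPM with vehicle and 199 to 328 CPM with ML351. All 15 had a log2 difference above 0 between the combination and cytokines, with a median of 1.02, and none was at 0 in every library of a group. Of the 15, edgeR called 1 in that comparison, Bhlha15 (log2 0.57), named after its value was seen. It was also the only one called lower with cytokines than with vehicle (log2 -3.27). Without cytokines replicate 1, the library of fewest acinar counts, the combination-against-cytokines log2 difference was 1.73 for Nr4a1, 0.96 for Nr4a2, 0.74 for Fos and 5.17 for Npas4. The 2 cytokine libraries left still lay below each combination library in summed acinar markers, and the part of acinar RNA in these differences was not tested.

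AP-1 is a dimer of a FOS-family and a JUN-family protein that binds the same DNA element in many stress and growth responses. Jun, at chr4:95049034-95052222 on the minus strand, stood at 32.5, 36.3 and 26.3 CPM with vehicle, 30.4, 26.7 and 35.6 CPM with ML351, 243, 209 and 199 CPM with cytokines and 203, 221 and 220 CPM with the combination. Every library with cytokines was above every library without, and ML351 left both levels overlapping. The mean rose from 31.7 ± 5.05 to 217 ± 23.4 CPM with cytokines, a log2 change of 2.77 (SE 0.128, adjusted p = 4.55e-10, edgeR) or 6.84-fold. In the presence of ML351 the log2 change was 2.80 (SE 0.127, adjusted p = 4.37e-10, edgeR). Between the combination and cytokines the log2 difference of Jun was -0.02 (SE 0.116).

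Junb, at chr8:84974484-84978718 on the minus strand, encodes the JUN-family partner that often restrains c-Jun. It stood at 40.02, 34.6 and 31.9 CPM with vehicle, 44.1, 29.7 and 41.5 CPM with ML351, 260, 201 and 211 CPM with cytokines and 205, 216 and 201 CPM with the combination. As with Jun, the 6 libraries with cytokines were above the 6 without. The log2 change was 2.66 (SE 0.152, adjusted p = 2.29e-08, edgeR) without ML351 and 2.43 (SE 0.150, adjusted p = 4.80e-08, edgeR) with it. The libraries do not record the strand, and Junb overlaps Prdx2 on the other strand, whose mean was 167 CPM with vehicle and 173 CPM with cytokines. Jun has an antisense partner, Junos, which was not analysed under that name.

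Fos, at chr12:85473890-85477273 on the plus strand, encodes the classical induced AP-1 subunit. Its levels were 4.88, 5.51 and 3.04 CPM with vehicle, 11.5, 4.37 and 6.61 CPM with ML351, 6.61, 12.9 and 7.86 CPM with cytokines and 17.6, 20.2 and 14.6 CPM with the combination. The combination libraries were above all 9 others, and each cytokine library was above each vehicle library, while ML351 overlapped both. The log2 change with cytokines was 1.02 (SE 0.396, adjusted p = 0.0414, edgeR), or 2.03-fold.

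That Fos call was narrow. The difference did not pass in 11 of the 20 alternative settings, with adjusted p from 0.00953 to 0.146 over them. The libraries whose removal ended it were vehicle 1 (adjusted p = 0.0751, edgeR), vehicle 4 (0.125), ML351 3 (0.0576), cytokines 3 (0.146), cytokines 4 (0.0569) and the combination 1, 2 and 4 (0.0544, 0.0550 and 0.0517). In the presence of ML351 the cytokine response of Fos was 1.23 (SE 0.373, adjusted p = 0.0142, edgeR), and it passed in each of the 20 settings. ML351 against vehicle gave 0.73 (SE 0.396, adjusted p = 0.657, edgeR). The combination mean, 17.5 ± 2.83 CPM, was 1.92-fold the cytokine mean of 9.12 ± 3.33 CPM (log2 0.94, SE 0.371).

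Egr1 encodes a zinc-finger factor induced through SRF and MAP kinase signals. It stood at 10.1, 7.10 and 6.54 CPM with vehicle, 7.99, 9.62 and 12.1 CPM with ML351, 15.2, 13.6 and 15.8 CPM with cytokines and 10.8, 22.7 and 12.0 CPM with the combination. The cytokine libraries were above all 6 libraries without cytokines, and the combination was spread widely because replicate 2 stood apart from the other two. Cytokines against vehicle gave a log2 change of 0.91 (SE 0.284, adjusted p = 0.0143, edgeR), which no longer passed without vehicle replicate 2 (adjusted p = 0.0505, edgeR) or vehicle replicate 4 (0.0540).

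With ML351 present, the log2 difference of Egr1 was 0.62 (SE 0.278, adjusted p = 0.0678, edgeR) and did not pass. DESeq2 called it (adjusted p = 0.0143), and so did edgeR without ML351 replicate 3 (adjusted p = 0.0475), combination replicate 1 (0.0201) or combination replicate 4 (0.0440). Without combination replicate 2 it fell to 0.21 (adjusted p = 0.304, edgeR). The combination and cytokine means were 15.2 ± 6.54 and 14.9 ± 1.14 CPM, a log2 difference of 0.03 (SE 0.275) that became -0.38 without combination replicate 2.

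Arc, at chr15:74669083-74672570 on the minus strand, encodes a capsid-like protein that regulates receptor trafficking at synapses. It was low in all groups, with 1.70, 1.73 and 1.24 CPM with vehicle, 2.29, 2.04 and 1.73 CPM with ML351, 3.10, 3.43 and 3.53 CPM with cytokines and 1.91, 2.65 and 2.70 CPM with the combination. The cytokine libraries were above the other 9, and the combination overlapped ML351. Cytokines raised Arc by 1.10 on the log2 scale (SE 0.238, adjusted p = 0.000507, edgeR), a 2.15-fold rise. With ML351 present the log2 difference was 0.26 (SE 0.236, adjusted p = 0.334, edgeR). Between the combination and cytokines it was -0.47 (SE 0.232), the opposite sign of Nr4a1, Nr4a2, Fos and Npas4. Arc rests on 104 to 217 counts per group.

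Dusp1, on the minus strand of chromosome 17 (chr17:26505590-26562128 in GENCODE M21), encodes a phosphatase that switches off p38, JNK and ERK and so closes the loop opened by the other genes. It stood at 28.1, 27.2 and 24.7 CPM with vehicle, 31.5, 22.3 and 28.8 CPM with ML351, 97.0, 103 and 102 CPM with cytokines and 112, 128 and 135 CPM with the combination. The groups without cytokines overlapped, and the combination lay above cytokines in every library. The log2 change with cytokines was 1.92 (SE 0.107, adjusted p = 2.57e-10, edgeR), or 3.78-fold, and 2.18 (SE 0.106, adjusted p = 5.62e-11, edgeR) with ML351 present. The combination mean of 124.8 ± 12.0 CPM was 1.24-fold the cytokine mean of 100.8 ± 3.37 CPM (log2 0.31, SE 0.0996). The gene span overlaps Ergic1 on the other strand, whose mean was 239 CPM with vehicle and 273 CPM with cytokines.

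Compared per kilobase of exon, Junb, Jun and Dusp1 were the most abundant of the 9 genes in each of the 4 groups, in that order. Their vehicle levels were 15.4, 9.95 and 8.06 CPM per kilobase. The lower ranks changed with treatment. Nr4a2 was 4th with vehicle, at 4.33 CPM per kilobase, and 8th with cytokines, at 0.742. Fos moved from 5th, at 1.90, to 4th in the combination, at 7.43.

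Most of these genes varied more between replicate libraries than other genes of like abundance. The biological coefficient of variation, the replicate spread that edgeR fits beyond counting error, was 31.7% for Fos, 25.4% for Nr4a1, 23.5% for Egr1 and 15.6% for Nr4a2, against a median of 10.3% over all genes. Among genes within 0.5 log2 units of the same level, the share with a smaller value was 96.8% for Fos, 94.5% for Nr4a1, 95.5% for Egr1 and 91.4% for Nr4a2. It was 97.6% for Junb, 95.7% for Jun and 92.9% for Dusp1, but 10.6% for Arc and 68.0% for Npas4. Some libraries were shifted over most of the 9 genes. Against the group mean of log2 CPM, vehicle replicate 1 was above for 9 (median deviation 0.13) and vehicle replicate 4 for 1 (-0.26). ML351 replicate 1 was above for 7 (0.22) and combination replicate 2 for 9 (0.06). The remaining libraries were above for 2 to 6, and the share over all genes was not computed.

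The wider families were described from lists. Of 15 related FOS, JUN, EGR, NR4A and DUSP genes, 11 were measured, none of them an NR4A gene. With cytokines 8 of the 11 rose and 2 fell (median log2 0.47), where 35.3% and 37.2% of all genes did. In the AP-1 family, Fosl1 rose by 2.06 on the log2 scale (adjusted p = 0.00178, edgeR), Fosl2 by 1.71 and Jund by 0.46. Among MAP kinase phosphatases, Dusp4 rose from 11.03 to 55.02 CPM (log2 2.32), Dusp5 rose by 0.47, and Dusp6 fell by 0.56 (adjusted p = 0.0356, edgeR). Egr2 had a log2 difference of -0.23 (adjusted p = 0.715, edgeR). With ML351 present 8 rose and 1 fell, Dusp6 being at -0.23 (adjusted p = 0.347, edgeR). Between the combination and cytokines edgeR and DESeq2 called 0 of the 11. Before adjustment 1 was under 0.05 in edgeR, as were 2212 of all 14089 genes. Between ML351 and vehicle edgeR called 0, with 2 under 0.05 before adjustment, and DESeq2 called 1.

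A second list held 47 other immediate early and stress genes, all measured. Cytokines raised 37 and lowered 5 of them (median log2 1.16), where 35.3% of all genes rose and 37.2% fell. With ML351 present 39 rose and 4 fell (median 1.32), where 71.5% of all genes were called and 35.2% were called higher. In both comparisons 37 were higher and 4 lower. The list includes genes of cytokine signalling, such as Nfkbia and Socs3, and was chosen with earlier results of these data known, so these counts are a description. The medians over all genes were -0.02 in both. Atf3, a stress-induced ATF/CREB factor, rose from 4.69 to 140 CPM (log2 4.90, SE 0.198, adjusted p = 1.41e-09, edgeR). Myc rose by 2.91, Klf6 by 2.64, Ier3 by 2.62, Zfp36 by 1.18, Klf4 by 0.81 and Ier2 by 0.37. Btg2, an antiproliferative gene, fell by 0.82.

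Between the combination and cytokines, 3 of these 47 genes passed the edgeR test, as did 202 of all 14089 genes. Btg2 was higher by 0.38 (SE 0.0727, adjusted p = 0.0216, edgeR), at 86.3 against 66.3 CPM. The others, named after their values were seen, were Errfi1, higher by 0.46, and Gadd45b, lower by 0.42 on the log2 scale. Atf3 was at 142 and 140 CPM (log2 0.02, adjusted p = 0.966, edgeR). The median log2 difference of the 47 was 0.00, as it was over all genes. ML351 against vehicle had 0 edgeR calls among the 47, with 5 under 0.05 before adjustment, and 1 call each by DESeq2 and limma-voom.

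Genes known to be driven by CREB or by neuronal activity formed a list of 26, all measured. Cytokines raised 10 and lowered 11 of them (median log2 0.06), shares near the 35.3% and 37.2% of all genes, and with ML351 present 11 rose and 9 fell. Per1 rose by 1.60 and Crem, a CREB-family repressor, by 0.47, and Sik1, a kinase that restrains CREB coactivators, had a log2 difference of 0.23 (adjusted p = 0.151, edgeR). Between the combination and cytokines 1 of the 26 was called, Gem (log2 0.38), a small GTPase named after its value was seen. Before adjustment 8 of them were under 0.05 in edgeR, as were 2212 of all 14089 genes. In that comparison 19 of the 26 had a log2 difference above 0 (median 0.16, against 0.00 over all genes). In each combination library 8 were higher than in each cytokine library and 0 were lower, as were 10.1% and 10.3% of all genes. Of 42 measured genes of upstream kinases, channels and transcription factors, of 43 listed, cytokines raised 16 and lowered 14, again near the shares of all genes. Srf rose by 1.81 (adjusted p = 1.87e-12, edgeR). Between the combination and cytokines 1 of the 42 was called, Mapk3 at -0.33, likewise named after its value was seen. DESeq2 called 2 of the 26 and 4 of the 42 there, where it called 527 of all genes and edgeR called 202.

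**Figure D4:**
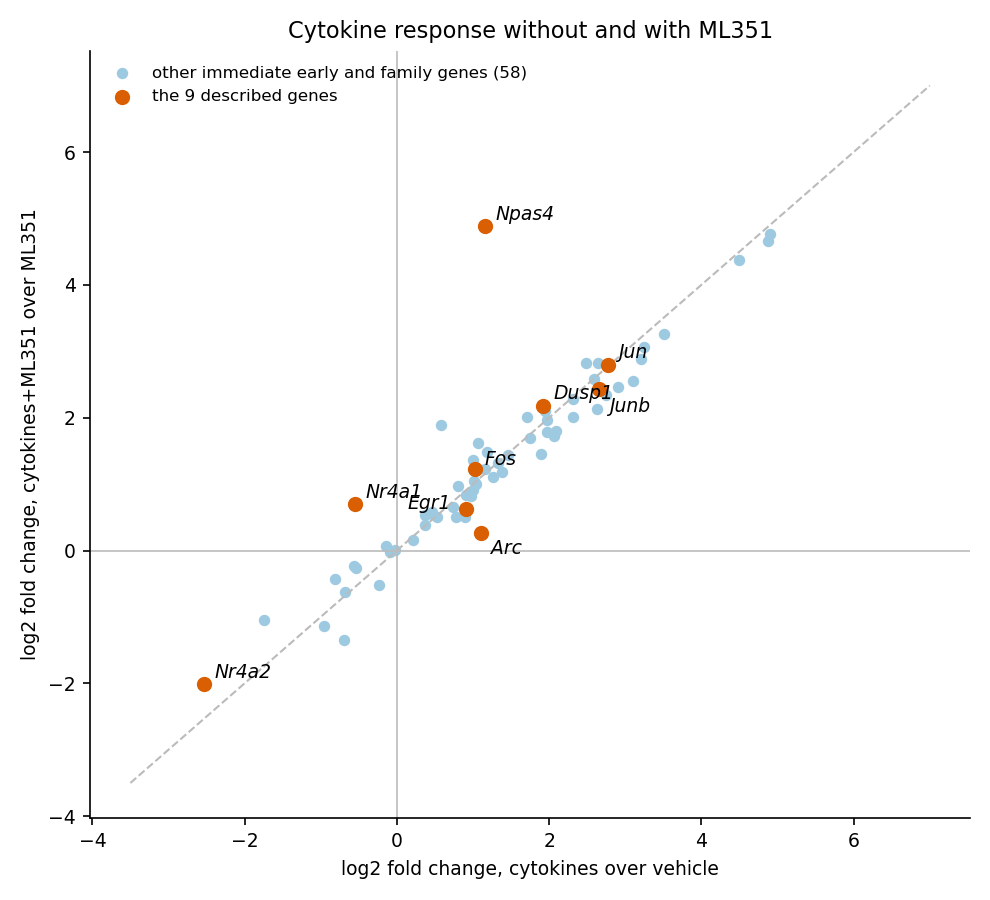
Log2 fold change with cytokines in the absence of ML351 (x axis) and in its presence (y axis) for the 9 described genes (large points) and the 58 measured genes of the family and immediate early lists (small points); the dashed line marks equal change. Jun, Junb, Dusp1 and Fos lie near the line, and Npas4 (1.16 and 4.88), Nr4a1 (-0.55 and 0.70) and Arc (1.10 and 0.26) lie away from it. Distance from the line was not tested, since it contains the comparison of the combination with cytokines that chose the genes. Npas4, in addition, could be in the table only by being high in the combination.

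Genes with the most similar pattern were taken as those with the smallest root mean square difference of mean-centred log2 CPM over the 12 libraries, among 11216 genes. For Nr4a1 these were Fnbp1l (0.385), Ppl (0.432) and Igsf9 (0.440), and Fos stood at rank 1646 (0.664). Igsf9 averaged 2.66 CPM with vehicle, 3.54 with ML351, 2.50 with cytokines and 6.18 with the combination. For Nr4a2 they were Mdm1 (0.279), P2ry1 (0.294) and Bet1 (0.305), and Nr4a1 stood at rank 5937 (1.25). Mdm1 averaged 58.9, 60.0, 10.8 and 13.7 CPM in the same groups. The libraries share their treatments, so this likeness is a description.

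Library totals ran from 20208286 to 27193026 counts, and apart from Npas4 and Arc each of the 9 genes had at least 52 counts in every library. The islet label was checked against cell markers: 10 β-cell markers, insulin included, summed to 257300 to 379900 CPM over the 12 libraries, a sum carried by Ins1, Ins2 and Iapp while 8 of the 10 fell with cytokines, and none of them was at 0 in every library of a group. Macrophages also transcribe these genes on activation; their 15 markers summed to 231 to 236 CPM with vehicle, 173 to 195 CPM with ML351, 358 to 378 CPM with cytokines and 319 to 325 CPM with the combination. Ductal markers, 9 of 10 measured, summed to 1055 to 1249 CPM with vehicle and 1107 to 1357 CPM with ML351. They summed to 3304 to 4139 CPM with cytokines and 3539 to 3686 CPM with the combination. Krt7, Krt8, Krt18 and Spp1, named after their values were seen, carried most of this sum. With cytokines against vehicle 7 of the 9 were called higher, while Krt19 (adjusted p = 0.101, edgeR) and Sox9 (adjusted p = 0.839, edgeR) did not pass. The part of macrophage and ductal RNA in the values of the 9 genes was not tested.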

How the data were processed

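RNA was measured in 12 libraries of mouse islets. The deposited values are whole-number counts of reads per gene symbol, not normalized; libraries were nonstranded, made with the SMARTSeq v4 kit, per the labels' protocols. Per the submitters' processing notes, the build was mm10 and the tools included STAR, featureCounts of Subread, FastQC and DESeq2, with no version or role given. Which annotation was counted, and whether rare genes were removed, is not given in the sources used here. Groups came from the agent named for each sample. No pair of libraries was alike within sampling noise (lowest chi-square per degree of freedom 4.12, over genes with at least 10 counts).

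All 12 libraries entered 1 model in edgeR 4.0.16 (R 4.3.3; TMM scaling, filterByExpr, which removed no gene, robust glmQLFit, glmQLFTest) with a mean per group. Within a comparison p-values were adjusted by Benjamini and Hochberg's method over the 14089 genes, and genes were called at 0.05. SE is the absolute log2 fold change over the root of the F statistic. CPM use TMM-scaled totals, except where the library total is named. Ratios of Npas4 counts carry exact binomial 95% intervals. The steps were tested on simulated data. Members and lists were chosen with earlier results of these data known.

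The genes named were the listed ones, a fixed subset of related genes, and for Nr4a1 and Nr4a2 the 3 most alike among genes averaging at least 1 in log2 CPM; others are said to be named after their values were seen. Coordinates are from GENCODE M21 on GRCm38, the assembly of mm10, and per-kilobase levels use its exon lengths. RefSeq promoters of GRCm38.p6 were searched on both strands. The Egr1 and Arc promoters are not analysed here. Alternatives were DESeq2 1.42.0, RLE scaling, library totals alone, a filter of 1 CPM in 3 libraries, no filter, limma-voom (limma 3.58.1), a replicate block, only the groups compared, and leaving out each library. A list of cell markers is not reported here.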

Additional observations from a re-analysis of the deposited data

Results flagged for a closer look

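Arc stood out because ML351 went with opposite directions in both backgrounds. It was higher in all 3 ML351 libraries than in all 3 vehicle libraries (log2 0.37, adjusted p = 0.711, edgeR). The lowest ML351 library and the highest vehicle library were at 1.732 and 1.728 CPM, so these groups nearly touched. Arc was lower in all 3 combination libraries than in all 3 cytokine libraries (log2 -0.47). The ML351 difference with cytokines minus that without was -0.85 on the log2 scale. This difference was not tested, since the combination and cytokine libraries served to choose the genes.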

How the results depend on the processing

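Of 776 values recomputed under 20 alternative settings, 13 no longer passed and 6 newly passed, and 15 fold changes changed sign. With cytokines against vehicle, 5 to 8 of the 9 genes were called when 1 library was left out. With ML351 against vehicle the count was 0 in each setting. With the combination against ML351 it was 5 or 6, with Npas4, whose call is no independent result, included in each setting. Of the changes of sign, 8 were in ML351 against vehicle, where none of the 9 genes was called, and 7 in the combination against cytokines, which was not tested: Egr1 4 times (-0.38 to -0.03, against 0.03) and Jun 3 times (0.02 to 0.06, against -0.02). In ML351 against vehicle, Jun was at 0.02 with library totals alone. Leaving out a library there gave -0.16 to 0.07 for Jun, -0.09 to 0.56 for Nr4a1, -0.01 to 0.27 for Junb, -1.04 to 4.15 for Npas4 and -0.07 to 0.17 for Dusp1. Fos with cytokines did not pass with library totals alone (adjusted p = 0.0648, edgeR) or limma-voom (adjusted p = 0.0720). The cause was not tested. Library totals alone moved the median of all genes to -0.10 on the log2 scale in the combination against ML351. Npas4 rests on few counts outside the combination, which limits its folds there.

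Replicate numbers were checked for pairing. Over 13 pairs of same-numbered libraries, deviations from the group means correlated from -0.41 to 0.28, with 4 pairs over 0.1. Such correlations, from groups of 3 libraries, cannot tell whether same-numbered libraries share animals or a batch. With the replicate block, 6 genes were called with cytokines against vehicle, 0 with ML351 against vehicle and 5, Npas4 included, with the combination against ML351. The block ended the call of Fos with cytokines against vehicle (log2 0.91, adjusted p = 0.121, edgeR).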
